A study of Mus musculus with 13 samples.

Results

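Ferroptosis is a death of cells in which iron drives the oxidation of membrane lipids until the membrane fails. The cystine importer made of Slc7a11 and Slc3a2 feeds glutathione synthesis, and Gpx4, a selenium enzyme, spends glutathione to reduce lipid peroxides. Aifm2, Dhodh and Gch1 keep up other radical-trapping molecules, whereas Acsl4 loads membranes with the polyunsaturated lipids that oxidize most readily. Proximal tubule cells, rich in mitochondria and polyunsaturated lipid, are a well-known site of this death in kidney injury. Here 10 genes were followed: the importer chains Slc7a11 and Slc3a2, the transsulfuration enzyme Cbs, the brakes Gpx4, Aifm2, Gch1 and Dhodh, the drivers Acsl4 and Sat1, and Ptgs2, often used as a marker of ferroptosis. They were chosen by symbol for their known roles, and the choice used no measured value of theirs as a rule. Earlier results of these data were known when they were chosen. All 10 of the 10 were found among the 35013 gene symbols, and all 10 were among the 16468 genes that were tested.

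The 13 kidney libraries came from female mice and comprised 4 labelled Spns1 KO, 5 labelled WT and 4 labelled FeO (iron overload). SPNS1 is a transporter of the lysosomal system that the study examined as an iron carrier. According to the methods, all mice carried Megalin3'Cre-Ert and Uprt flox/+, with the Spns1 genotype flox/flox in Spns1 KO and flox/+ in WT and FeO. The latter groups are called Spns1 WT in the labels, although the methods give them 1 floxed allele, which the Cre can also act on. Whether that allele was deleted was not tested, and WT below means the libraries so labelled. The Cre is expressed from the megalin locus and needs tamoxifen, which all groups had, and it switches on the Uprt allele. FeO mice received 12 mg of iron a day, as iron sucrose, on 3 days and were killed 1 week later, and no age is given. The Uprt enzyme lets a cell put injected 4-thiouracil into new RNA, which was then biotinylated, captured from whole-kidney RNA, selected for poly-A tails and sequenced. By the study's design the label marks RNA made in the proximal tubule over 4 h, and the sample titles read KidneyPT.

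Total counts per library lay between 23068023 and 71296474, with medians of 41287008 in Spns1 KO, 29730591 in WT and 28774855.5 in FeO. Spns1 itself spanned 36.6 to 59.0 CPM (counts scaled to the library total and by edgeR's TMM factors) in Spns1 KO and 39.2 to 62.9 in WT, so the groups overlapped. Spns1 KO 1 to 4 were at 39.0, 44.5, 36.6 and 59.0 CPM, and WT 1 to 5 at 57.2, 61.4, 57.6, 39.2 and 62.9. FeO 1 to 4 were at 58.7, 56.7, 39.0 and 45.9 CPM, all inside the Spns1 KO range. The overlap of Spns1 KO with WT rested on Spns1 KO 4 and WT 4. Any bearing of its Spns1 level on the other values of Spns1 KO 4 was not tested. The floxed allele loses 1 exon and the count covers the whole gene, so this level does not check the deletion. The study itself reported loss of Spns1 RNA and protein from the proximal tubule of Megalin3'Cre-Ert mice with Spns1 flox/flox. Spns1 KO below means the libraries so labelled. All 10 proximal tubule markers examined were detected, with summed levels of 6230 to 7064 CPM in Spns1 KO, 3346 to 4717 in WT and 1901 to 4616 in FeO, and 5 of the 10 were called up in Spns1 KO. In FeO 2 of them were called up and 1 down, and 6 were higher in Spns1 KO than in FeO. Slc7a13, a marker of the straight segment, averaged 1.03 CPM in Spns1 KO, 1.10 in WT and 0.58 in FeO. Markers of other cells were also present, none of them at 0 in all libraries. Those of red cells (3 of 3) and plasma cells (2 of 3) were called up in both models, and 5 of 7 macrophage markers were called up in FeO. Over all genes tested, 14.0% were called up in Spns1 KO and 22.4% in FeO. In such bulk samples, fewer cells of a type and less RNA per cell cannot be told apart.

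In Spns1 KO against WT the gene of the 10 with the largest log2 fold change was Slc7a11, and its promoter is shown because it alone among these genes held 1 of the motifs that were searched. RefSeq (GRCm38.p6) gave promoter windows for 9 of the 10 genes, Dhodh not among them. In the 250 bases before each start, on both strands, the antioxidant response element TGACNNNGC, bound by NRF2, and the amino acid response element TGATGNAA, bound by ATF4 with C/EBP partners, were searched. The first was found in 10.16% of all 32851 windows of that length and in none of these genes. The second was found in 3.45% of the windows and, of these genes, in Slc7a11 alone, which had 2 matches, TGATGCAA from 66 to 59 bases before the start and TTGCATCA, on the other strand, from 47 to 40 bases before it. The matches do not overlap, and are the capitals in the sequence, which lies on the minus strand at chr3:50443614-50443863 and is written 5′ to 3′.
Slc7a11: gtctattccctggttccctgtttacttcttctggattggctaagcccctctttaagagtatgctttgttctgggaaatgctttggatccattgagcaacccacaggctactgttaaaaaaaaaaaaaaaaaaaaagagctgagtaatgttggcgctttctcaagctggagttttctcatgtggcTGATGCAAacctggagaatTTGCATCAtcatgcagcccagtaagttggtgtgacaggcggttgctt
A match of letters is a description and not a binding site.

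In WT the 10 genes spanned a wide range of levels. Per kilobase of transcript, the mean WT level was highest for Sat1, at 219.0 ± 34.0 CPM per kb (SD, n = 5), followed by Slc3a2 at 119 ± 25.4, Gpx4 at 88.7 ± 22.1 and Acsl4 at 40.2 ± 6.38. Aifm2 (17.8 ± 2.68), Cbs (13.2 ± 1.23) and Dhodh (6.21 ± 0.85) came next on this scale. Gch1 (1.21 ± 0.40), Slc7a11 (1.02 ± 0.29) and Ptgs2 (0.86 ± 0.27 CPM per kb) were the lowest. Neighbours whose WT libraries overlapped were Slc3a2 with Gpx4, Aifm2 with Cbs, Gch1 with Slc7a11 and Slc7a11 with Ptgs2. The importer's light chain, Slc7a11, was thus far lower than its heavy chain, Slc3a2, which also pairs with other transporters. The counts behind the lowest genes were small, between 75 and 360 per library for Slc7a11, 56 and 205 for Gch1 and 43 and 248 for Ptgs2, against at least 273 for each of the others.

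**Figure D1:**
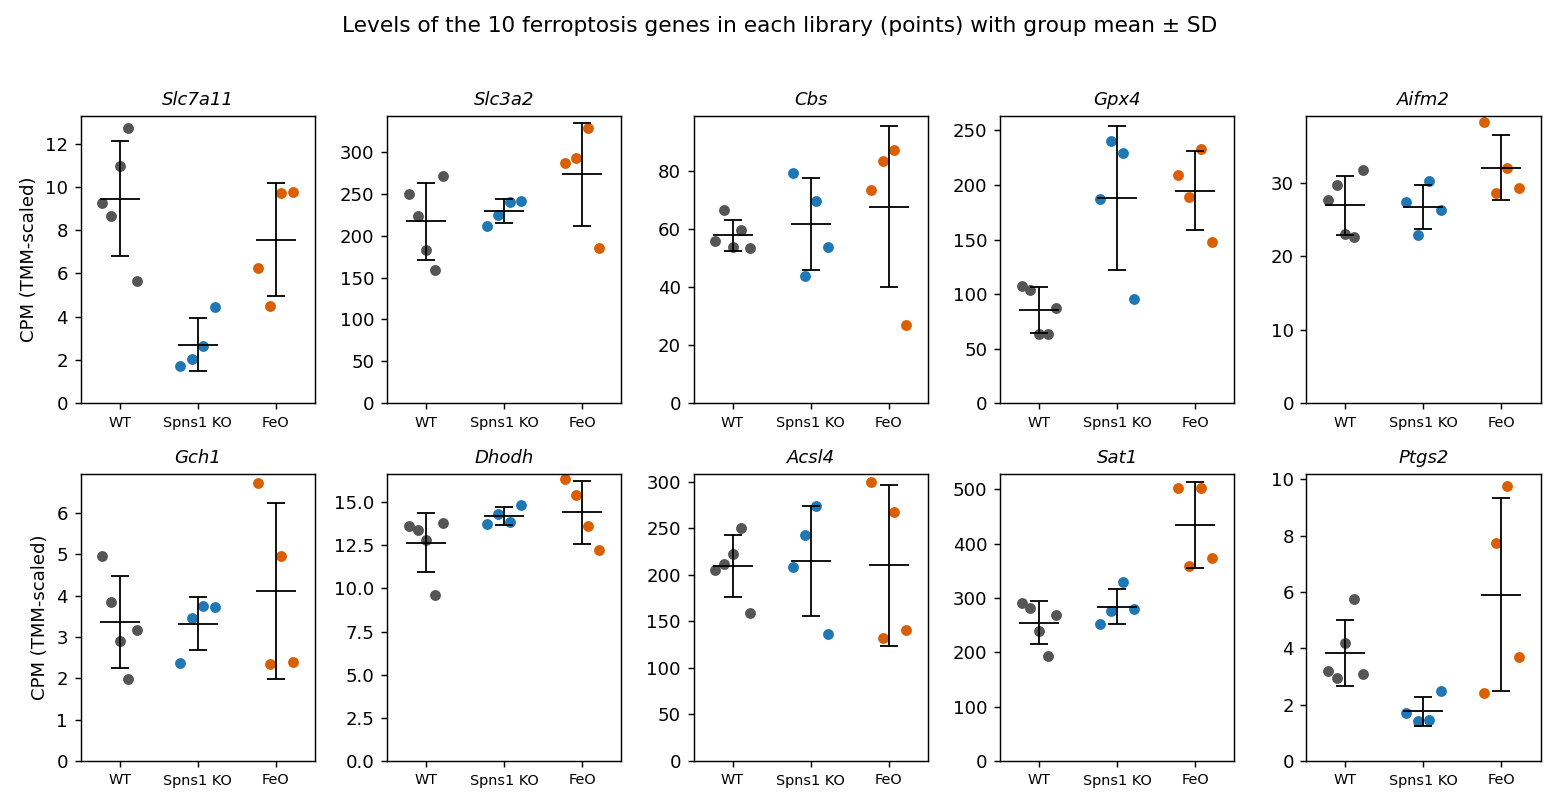
Level of each of the 10 genes in CPM (vertical axis, starting at 0) in every library, with 5 WT, 4 Spns1 KO and 4 FeO points and bars for the group mean ± SD. All 4 Spns1 KO libraries lie below all WT libraries for Slc7a11 and Ptgs2, and all 4 FeO libraries lie above all WT libraries for Gpx4 and Sat1.

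Relative to WT, 3 of the 10 genes passed the limits in Spns1 KO (adjusted p under 0.05 and a log2 fold change beyond 0.5 in either direction): Gpx4 rose, and Slc7a11 and Ptgs2 fell. Of all genes tested, 21.6% were called in that comparison, 14.0% up and 7.55% down. Those 3550 genes became 2128, 2179 or 2035 without Spns1 KO 1, 2 or 3, 5680 without Spns1 KO 4 and 2305 without WT 3. In FeO, 2 of the 10 were called, Gpx4 and Sat1, both up, where 42.2% of all genes were called, 22.4% up and 19.7% down. Both comparisons use the same WT libraries. Between Spns1 KO and FeO directly, Slc7a11, Ptgs2 and Sat1 were lower in Spns1 KO, 3 of 10 against 14.9% of all genes, and none was higher. The 2447 genes behind that share became 1402, 1447 or 1181 without Spns1 KO 1, Spns1 KO 2 or FeO 1, and 1040 in a fit of those 2 groups alone. The groups did not overlap for 2 of the 10 genes in each comparison, against 22.4%, 33.4% and 17.4% of all genes in the same order. For the 10 genes the median log2 fold change against WT came to 0.06 (Spns1 KO) and 0.27 (FeO), beside -0.05 and -0.01 over all genes. With 10 genes, neither count against WT was read as set apart from these shares. With library totals alone in place of TMM factors, the genes called over the whole table in Spns1 KO changed from 2307 up and 1243 down to 1739 up and 2086 down, and the median of all genes shifted by -0.13. These 10 genes kept the same calls.

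**Figure D2:**
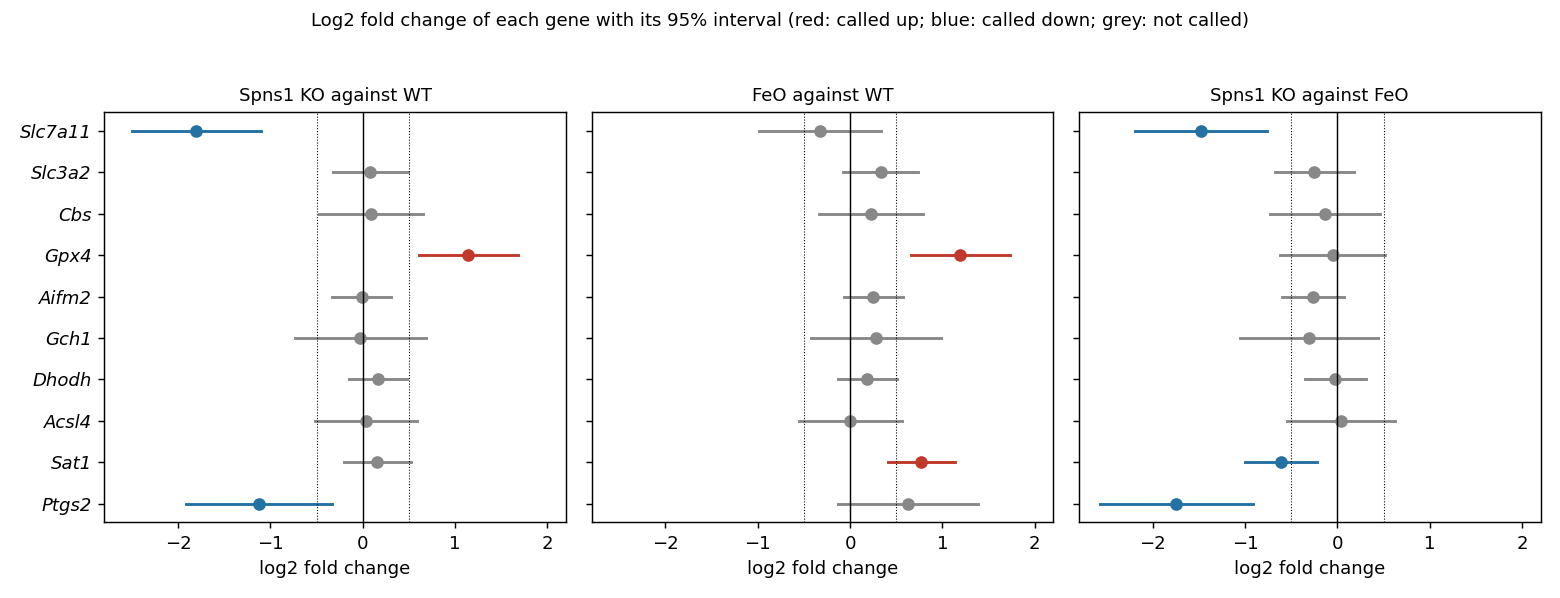
Log2 fold change (horizontal axis) of each of the 10 genes with its 95% interval from edgeR, in 3 panels for Spns1 KO against WT, FeO against WT and Spns1 KO against FeO. Dotted lines mark 0.5 in either direction, and the coloured points are the 3, 2 and 3 called genes.

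Slc7a11, the light chain that carries cystine in and glutamate out (GRCm38 chromosome 3 from 49892526 to 50443614, minus strand), fell in Spns1 KO. Its level was 1.73, 2.03, 2.64 and 4.46 CPM in Spns1 KO 1 to 4. In WT 1 to 5 it was 9.26, 8.66, 10.96, 12.7 and 5.64 CPM, and in FeO 1 to 4 it was 6.23, 4.51, 9.70 and 9.78 CPM. Every Spns1 KO library was below every WT library and every FeO library, while FeO overlapped WT. Slc7a11 was 3.49-fold lower in Spns1 KO than in WT, a log2 change of -1.80 (standard error, SE, 0.33, Benjamini-Hochberg adjusted p = 0.00172, edgeR quasi-likelihood test). Against FeO the log2 fold change of Spns1 KO was -1.48 (SE 0.34, adjusted p = 0.0116, edgeR). The 2 models therefore differed in this gene by a direct test. In FeO against WT it was -0.32, with a 95% interval from -0.99 to 0.34. Both calls of Slc7a11 were kept under all 22 alternative settings. In FeO the direction turned, to 0.51 (adjusted p = 0.113, edgeR), once a smooth dependence on transcript length and GC content had been taken out of each library (the trend-adjusted fit). The transcript of Slc7a11 has 9223 bases, against a median of 2809 for tested genes.

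Slc3a2, the heavy chain that brings Slc7a11 to the cell surface (chromosome 19 from 8706882 to 8723369), did not follow its partner. Its level was 212, 225, 241 and 241 CPM in Spns1 KO 1 to 4, 249, 223, 183, 159 and 271 in WT 1 to 5 and 286, 292, 328 and 186 in FeO 1 to 4. Spns1 KO lay within the WT range, and FeO 1 to 3 were above every WT library while FeO 4 was inside the range. The log2 fold change of Slc3a2 was 0.08 in Spns1 KO (95% interval from -0.32 to 0.49) and 0.33 in FeO (from -0.07 to 0.74), neither of them called. Cbs, which takes homocysteine into the route to cysteine (chromosome 17 from 31608894 to 31637238), was at 79.3, 43.8, 69.5 and 53.7 CPM in Spns1 KO 1 to 4. The WT libraries lay between 53.5 and 66.5 CPM, and FeO 1 to 4 were at 73.4, 83.2, 87.1 and 26.8 CPM. FeO 4 was the lowest of all 13 libraries and the other 3 FeO libraries were above every WT library. The log2 fold change of Cbs was 0.09 in Spns1 KO (95% interval from -0.47 to 0.66) and 0.23 in FeO (from -0.34 to 0.79). Without FeO 4, both Cbs (0.52, adjusted p = 0.0259, edgeR) and Slc3a2 (0.50, adjusted p = 0.0372, edgeR) passed the limits in FeO, for 4 called genes in place of 2.

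Gpx4, the enzyme that reduces peroxides inside membrane lipids (chromosome 10 from 80047166 to 80056439), was higher in both models. Its level was 187, 240.0, 229 and 95.2 CPM in Spns1 KO 1 to 4. In WT 1 to 5 it was 108, 103, 63.7, 63.1 and 87.5 CPM, and in FeO 1 to 4 it was 209, 189, 233 and 148 CPM. All FeO libraries and Spns1 KO 1 to 3 were above every WT library, and Spns1 KO 4 was inside the WT range. The log2 fold change was 1.14 in Spns1 KO (SE 0.25, adjusted p = 0.00554) and 1.19 in FeO (SE 0.25, adjusted p = 0.00195), both Benjamini-Hochberg adjusted in the edgeR test. These are 2.21-fold and 2.29-fold higher levels than in WT. Spns1 KO minus FeO was -0.05 on the log2 scale, with a 95% interval from -0.62 to 0.51. Gpx4 has a short transcript of 959 bases, and in the trend-adjusted fit it was no longer called in Spns1 KO (0.60, adjusted p = 0.0705, edgeR) but still in FeO (0.75). Other genes hold 38.94% of its 31-base words, foremost the pseudogene Gpx4-ps2, which had 0 to 12 counts per library, so some of its reads could have been shared out.

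The remaining brakes were not called in any comparison. Aifm2, which recycles ubiquinone at the membrane (chromosome 10 from 61715263 to 61739260), lay between 22.96 and 30.3 CPM in Spns1 KO, 22.6 and 31.8 in WT and 28.6 and 38.4 in FeO. For Aifm2 the log2 fold change was -0.01 in Spns1 KO (95% interval from -0.33 to 0.31) and 0.25 in FeO (from -0.07 to 0.57). It shares 233 exonic bases with H2afy2 on the other strand, whose reads cannot be told from its own without strand. Dhodh, which reduces ubiquinone in mitochondria (chromosome 8 from 109591343 to 109608673), varied least in Spns1 KO, from 13.8 to 14.9 CPM. In WT it lay between 9.64 and 13.8 and in FeO between 12.3 and 16.3 CPM. Its 95% intervals ran from -0.15 to 0.48 (Spns1 KO) and from -0.13 to 0.50 (FeO). Gch1, the entry enzyme of tetrahydrobiopterin synthesis (chromosome 14 from 47153895 to 47189413), was at 2.37 to 3.74 CPM in Spns1 KO and 1.98 to 4.96 in WT. FeO 1 and 3 were at 6.72 and 4.97 CPM and FeO 2 and 4 at 2.34 and 2.40, so the FeO libraries stood on both sides of the WT median. The log2 fold change of Gch1 was -0.03 in Spns1 KO (95% interval from -0.73 to 0.68) and 0.28 in FeO (from -0.42 to 0.99), which does not settle whether it differed.

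Acsl4, which activates arachidonic acid for the membrane lipids that oxidize (chromosome X from 142317993 to 142390535), had nearly equal means in the 3 groups. Its level was 208, 242, 273 and 136 CPM in Spns1 KO 1 to 4, 205, 212, 222, 250.2 and 159 in WT 1 to 5 and 300.0, 132, 268 and 140.3 in FeO 1 to 4. The spread was widest in FeO, where libraries 1 and 3 were above every WT library and libraries 2 and 4 below every one. For Acsl4 the log2 fold change was 0.04 in Spns1 KO (95% interval from -0.52 to 0.59) and 0.00 in FeO (from -0.55 to 0.56). In the trend-adjusted fit the values of Acsl4 were 0.51 (adjusted p = 0.252, edgeR) and 0.68 (adjusted p = 0.0863, edgeR), neither of them called, for a transcript of 5208.5 bases.

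Sat1, which acetylates spermidine and spermine (chromosome X from 155213132 to 155216449), rose in FeO. Its level was 503, 359, 502 and 373 CPM in FeO 1 to 4, against 290.2, 282, 239, 193 and 268 CPM in WT 1 to 5. Spns1 KO 1 to 4 were at 252, 276, 329 and 279.5 CPM. Every FeO library was above every WT and every Spns1 KO library, and Spns1 KO overlapped WT. Sat1 was 1.71-fold higher in FeO than in WT, a log2 change of 0.77 (SE 0.17, Benjamini-Hochberg adjusted p = 0.00261, edgeR quasi-likelihood test). In Spns1 KO it was 0.16 (95% interval from -0.21 to 0.52). Spns1 KO was lower than FeO by -0.61 on the log2 scale (SE 0.18, adjusted p = 0.0355, edgeR), a call kept under 12 of 22 alternative settings. The FeO call was lost only in the trend-adjusted fit, where the log2 fold change was 0.43 (adjusted p = 0.0389, edgeR) and thus under the fold limit.

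Ptgs2, the inducible cyclooxygenase that makes prostaglandin precursors and is expressed in the kidney by macula densa and medullary interstitial cells (chromosome 1 from 150100031 to 150108227), was low throughout. Its level was 1.70, 1.41, 1.44 and 2.48 CPM in Spns1 KO 1 to 4. In WT 1 to 5 it was 3.19, 2.93, 4.19, 5.76 and 3.09 CPM, and in FeO 1 to 4 it was 2.43, 7.75, 9.78 and 3.67 CPM. All Spns1 KO libraries were below all WT libraries, FeO 2 and 3 were above every WT library and FeO 1 was below every one. The log2 fold change was -1.12 in Spns1 KO (SE 0.37, adjusted p = 0.0402) and -1.74 in Spns1 KO against FeO (SE 0.39, adjusted p = 0.0109, both Benjamini-Hochberg adjusted in the edgeR test). In FeO against WT it was 0.62, with a 95% interval from -0.13 to 1.38. The call in Spns1 KO was kept under 11 of 22 alternative settings, being lost without Spns1 KO 1, 2 or 3 or without WT 1, 3, 4 or 5, and the call against FeO under all 22. Without FeO 1 the difference of FeO from WT passed the limits (0.91, adjusted p = 0.0396, edgeR).

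Markers of other kidney cells also differed between libraries. The 4 loop of Henle and macula densa markers summed to 2005 to 2713 CPM in Spns1 KO, 1118 to 2445 in WT and 1292 to 3390 in FeO, with 1 of 4 called up in each model. Among them Nos1, which marks the macula densa, averaged 1.79 CPM in Spns1 KO, 2.51 in WT and 2.17 in FeO, and none of these 4 was called down. The 5 fibroblast markers summed to 128 to 169 CPM in Spns1 KO, 79.9 to 117 in WT and 59.99 to 131 in FeO, with 3 of 5 up in Spns1 KO, none called in FeO and 2 higher in Spns1 KO than in FeO. The 7 macrophage markers summed to 79.7 to 121 CPM in Spns1 KO, 57.3 to 71.2 in WT and 95.3 to 178 in FeO, with 0 of 7 called in Spns1 KO and 5 of 7 up in FeO. Of 3 podocyte markers 2 were up in each model. Of 7 distal tubule and collecting duct markers, 4 were up in FeO and none down, and in Spns1 KO 2 of the 7 were up and 1 down. Of the 4 endothelial markers 1 passed as higher in Spns1 KO, against 1 higher and 1 lower in FeO. Their part in the levels of Slc7a11, Ptgs2, Gpx4 and Sat1 was not tested.

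**Figure D3:**
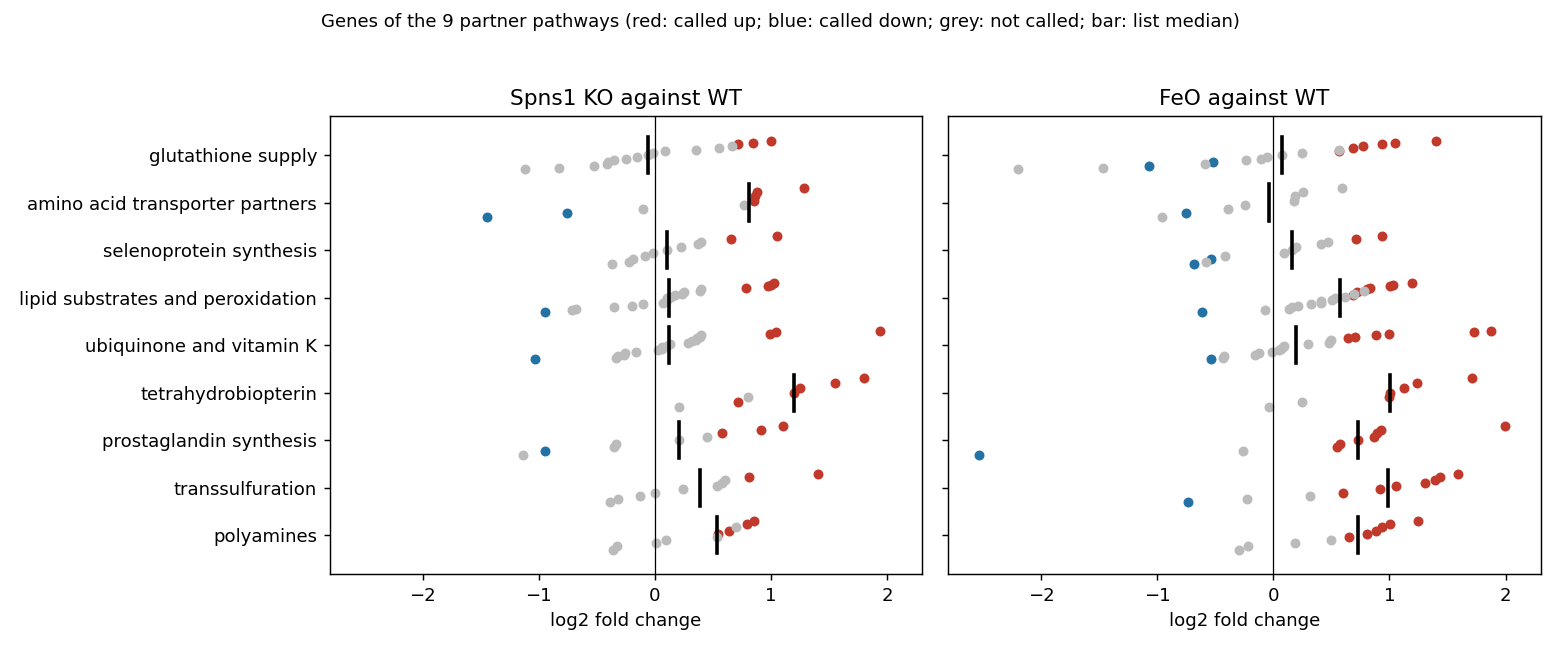
Log2 fold change against WT (horizontal axis) of each tested gene in 9 lists of pathway partners, for Spns1 KO (left) and FeO (right), with coloured points for called genes and a black bar for each list's median. In both panels the tetrahydrobiopterin genes stand furthest to the right, with medians of 1.198 and 1.005. Most lists, prostaglandin and transsulfuration genes among them, have more called points in FeO. Over all genes tested, 42.2% were called in FeO and 21.6% in Spns1 KO.

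The partners of these genes were taken from 9 lists with 112 tested genes, and Spns1 KO had 30 called up and 5 down (26.8% and 4.46%, against 14.0% and 7.55% of all genes). In FeO, 46 were called up and 9 down (41.1% and 8.04%, against 22.4% and 19.7%). Between Spns1 KO and FeO, 4 were higher and 14 lower in Spns1 KO (3.57% and 12.5%, against 6.76% and 8.10%). These totals moved with single libraries, the 35 called in Spns1 KO to 23 without Spns1 KO 3 and 53 without Spns1 KO 4, and the 18 between the models to 9 without FeO 1. The lists were chosen with earlier results of these data known, so these totals were not read as set apart from the all-gene shares.

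Beside the importer, other amino acid transporters split in Spns1 KO, with 4 of 8 up and 2 down. The 2 that were called down, Slc7a5 and Slc7a6, share the heavy chain Slc3a2, as does Slc7a11. Slc7a5, which imports large neutral amino acids, was at 11.2 ± 7.62 CPM in Spns1 KO (SD, n = 4) against a WT mean of 30.4 ± 7.26 (SD, n = 5), a log2 fold change of -1.45 (SE 0.36, adjusted p = 0.00993, edgeR). Slc7a6 changed by -0.76 on the same scale. Slc7a7 and Slc7a8, which also pair with Slc3a2 and serve basolateral export and exchange in the proximal tubule, rose by 1.28 and 0.88. Slc3a1 and Slc7a9, the apical cystine transporter whose loss causes cystinuria, rose by 0.86 each. Proximal tubule markers were also higher in Spns1 KO, as given above, and their part in the rise of these 4 transporter genes was not tested. In FeO, 1 of the 8, Slc7a8, was called (-0.75, adjusted p = 0.0257, edgeR), a call kept in 16 of 22 alternatives. The FeO count fell to 0 without WT 5, FeO 2 or FeO 4. Slc7a6, Slc3a1, Slc7a9 and, in Spns1 KO, Slc7a8 were named after their values were seen.

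Of 17 genes of glutathione supply and its regulators, Spns1 KO had 3 up and none down and FeO 6 up and 2 down, with medians of -0.06 and 0.08. The 3 became 1 without Spns1 KO 2, 0 without Spns1 KO 3 and 8 without Spns1 KO 4, and the 8 in FeO became 5 without FeO 3. Gclm, the regulatory subunit of the enzyme that starts glutathione synthesis, rose by 0.85 in Spns1 KO, and Glrx5, a mitochondrial glutaredoxin of iron-sulfur cluster assembly, by 0.99 in Spns1 KO and 1.40 in FeO. Bach1, a haem-sensing repressor of antioxidant genes, was at 61.7 ± 27.4 CPM in FeO (SD, n = 4) against a WT mean of 129.5 ± 14.9 (SD, n = 5), a log2 fold change of -1.07 (adjusted p = 0.00371, edgeR) that the trend-adjusted fit did not keep. Atf4 and Nfe2l2, whose products are named above with the motifs, were not called in either model, and were named after their values were seen. Atf4 averaged 126 ± 32.2 CPM in Spns1 KO (SD, n = 4), 119 ± 17.3 in FeO (SD, n = 4) and 139.9 ± 51.3 in WT (SD, n = 5). Nfe2l2, which encodes NRF2, averaged 113 ± 14.2, 145 ± 12.2 and 149.8 ± 22.4 CPM in the same order.

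Of 10 tested transsulfuration and methionine-cycle genes beside Cbs, Spns1 KO had 2 up and FeO 7 up and 1 down (medians 0.39 and 0.99). The 2 became 1 without Spns1 KO 1 and 5 without Spns1 KO 4, and the 8 in FeO became 5 without FeO 3. Mpst, which hands on sulfur from mercaptopyruvate, rose by 1.40 in Spns1 KO and 1.44 in FeO. Sqor, which oxidizes hydrogen sulfide, rose by 0.81 in Spns1 KO and 0.92 in FeO. Bhmt, which remethylates homocysteine, rose by 1.59 in FeO, with a wide spread of 109 ± 62.9 CPM (SD, n = 4). Of 11 genes of selenoprotein synthesis beside Gpx4, Spns1 KO had 2 up and FeO 2 up and 2 down, with medians of 0.10 and 0.16. The 2 became 1 without Spns1 KO 3 and 4 without Spns1 KO 4, and the 4 in FeO became 2 without WT 3 and 7 without FeO 2. Selenop, the plasma selenium carrier, averaged 440.3 ± 82.9 CPM in Spns1 KO (SD, n = 4) against a WT mean of 212 ± 17.9 (SD, n = 5), a log2 fold change of 1.05 (adjusted p = 0.00164, edgeR). Scly, which frees selenium from selenocysteine, rose by 0.65 in Spns1 KO, and Pstk and Eefsec, which make and deliver the selenocysteine tRNA, by 0.94 and 0.71 in FeO.

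Of 20 ubiquinone and vitamin K genes beside Aifm2 and Dhodh, Spns1 KO had 3 up and 1 down and FeO 6 up and 1 down, with medians of 0.12 and 0.20. The 7 called in FeO became 12 without FeO 2. Vkorc1, the vitamin K reductase, averaged 12.8 ± 2.01 CPM in Spns1 KO and 11.01 ± 3.21 CPM in FeO (SD, n = 4 each) against a WT mean of 3.33 ± 0.31 (SD, n = 5), log2 fold changes of 1.94 and 1.72 (adjusted p = 0.000204 and 0.000313, edgeR). Nqo1, a quinone reductase and NRF2 target, rose by 1.05 in Spns1 KO, a call kept in 14 of 22 alternatives, and by 1.88 in FeO, kept in all 22. Of 7 tetrahydrobiopterin genes beside Gch1, 5 were up in each model and none down. Pcbd1, which recycles the pterin cofactor, rose by 1.80 in Spns1 KO (adjusted p = 0.000271, edgeR) and 1.12 in FeO. Its paralog Pcbd2 rose by 1.55 in Spns1 KO and 1.00 in FeO. Spr, which completes the synthesis, rose by 1.25 in Spns1 KO and 1.24 in FeO. Gchfr, the feedback partner of the Gch1 protein, rose by 1.71 in FeO and was not called in Spns1 KO (0.80). In the trend-adjusted fit this list had medians of 0.90 and 0.62, with 5 genes up in each model. Gch1 itself, as given above, was not called.

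Of 20 tested genes of lipid substrates and peroxidation beside Acsl4, Spns1 KO had 4 up and 1 down and FeO 7 up and 1 down (medians 0.12 and 0.57). Pebp1, known to bind the enzyme Alox15, rose by 1.02 in the Spns1 KO and 1.197 in the FeO group. Cyb5r1, an oxidoreductase linked to lipid peroxidation, rose by 1.00 in Spns1 KO and was not called in FeO (0.41). Fads2, a fatty acid desaturase, rose by 0.98 in Spns1 KO and 1.03 in FeO. Of 10 polyamine genes beside Sat1, 4 were up in Spns1 KO and 6 in FeO, and none was down. The 4 became 2 without Spns1 KO 1, 2 or 3 or without WT 3. Sms and Sat2 rose by 0.85 and 0.80 in Spns1 KO and by 0.65 and 0.80 in FeO. Srm, which makes spermidine, and Oaz2, an inhibitor of ornithine decarboxylase, rose by 1.25 and 1.00 in FeO. In Spns1 KO, Oaz2 was also called up (0.54), whereas Srm (0.70) was not called. The median of the polyamine list in Spns1 KO fell from 0.54 to 0.23, and its called genes from 4 to 1, in the trend-adjusted fit.

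Of 9 prostaglandin genes beside Ptgs2, Spns1 KO had 3 up and 1 down and FeO 7 up and 1 down, with medians of 0.20 and 0.73. Against FeO, 4 of the 9 were lower in Spns1 KO and 1 was higher, and these 5 became 3 without Spns1 KO 1 or FeO 1. The 4 called in Spns1 KO against WT became 2 without Spns1 KO 1 or 3. Ptges, the inducible synthase that takes up the product of Ptgs2, averaged 17.8 ± 3.37 CPM in Spns1 KO and 50.9 ± 16.5 CPM in FeO (SD, n = 4 each) against a WT mean of 34.2 ± 7.84 (SD, n = 5). It fell by 0.94 on the log2 scale in Spns1 KO (adjusted p = 0.00761) and rose by 0.58 in FeO (adjusted p = 0.0393), and Spns1 KO was lower than FeO by -1.52 (adjusted p = 0.00245, all from edgeR). Ptges was thus called down in Spns1 KO together with Ptgs2. Ptgis, the prostacyclin synthase, rose by 1.11 in Spns1 KO and 1.99 in FeO. Ptgds, a prostaglandin D2 synthase, changed by -2.54 in FeO (adjusted p = 0.00726, edgeR), with WT libraries spread at 50.6 ± 33.9 CPM (SD, n = 5).

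The genes most like each called gene over the 13 libraries, by Pearson correlation of log2 CPM, were Klf5 (r = 0.92) and Dsel (0.92) for Slc7a11, Hagh (0.99) and Atraid (0.98) for Gpx4, Slc35b1 (0.96) and Hdac3 (0.96) for Sat1 and Gm20939 (0.93) and Tmem67 (0.88) for Ptgs2. These correlations are descriptions over libraries that share their groups and depths. Among the 10 genes themselves, Slc7a11 and Slc3a2 had r = -0.19.

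**Figure D4:**
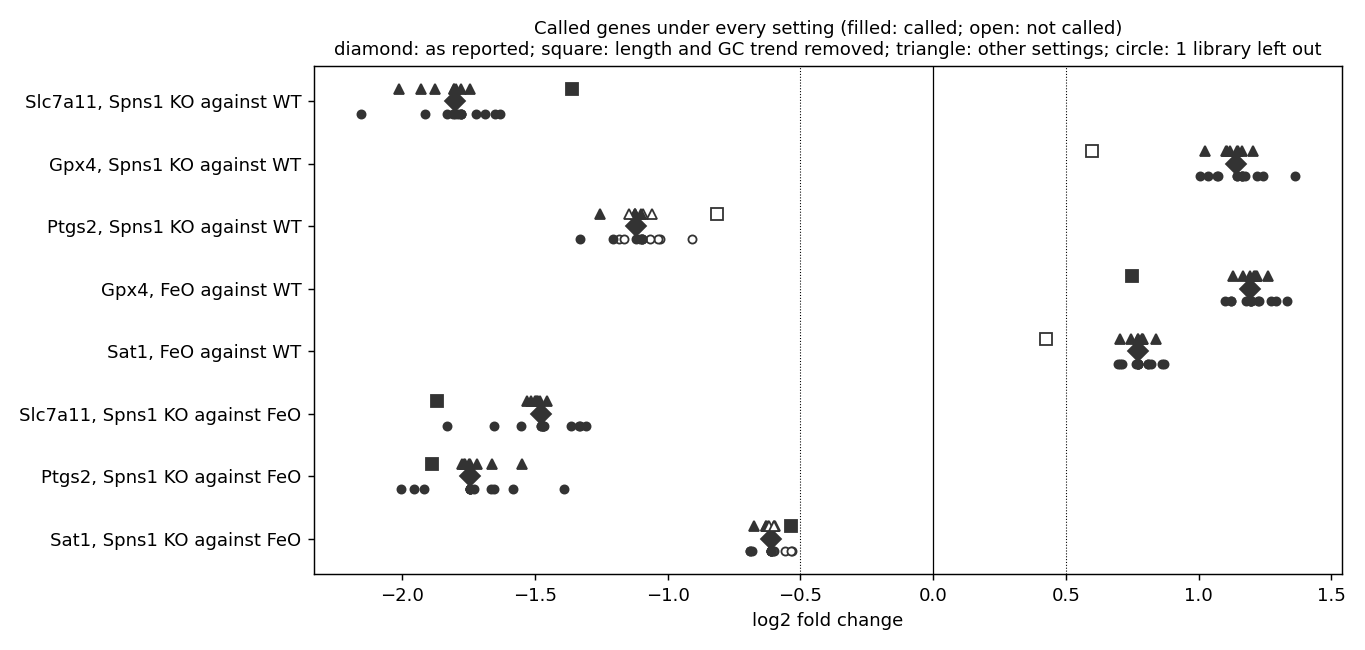
Log2 fold change (horizontal axis) of each called gene as reported (diamond), with 1 library left out (circles), in the trend-adjusted fit (square) and under the other settings (triangles), filled where the gene was called. Slc7a11 stayed called throughout, between -2.15 and -1.36 in Spns1 KO against WT, whereas open symbols are frequent for Ptgs2 in Spns1 KO against WT and for Sat1 in Spns1 KO against FeO.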

How the data were processed

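Kidney RNA tagged with 4-thiouracil was measured in 13 libraries. The authors deposited 1 table of estimated counts per gene symbol, whole numbers without normalization. The table's own name gives kallisto, and the submitters' processing notes name kallisto 0.44.0, bcl2fastq 2.19, DESeq2 and GRCm38, whereas the methods describe STAR alignment to mm10 and counting with HTSeq. Library totals lay between 23068023 and 71296474, and the spread between libraries, which depth alone does not set, enters each standard error.

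Symbols were looked up in the table, and groups were taken from the labels. The counts were scaled with TMM factors, genes were kept by filterByExpr, and all 13 libraries entered 1 fit of edgeR 4.0.16 (R 4.3.3) with its quasi-likelihood test. A gene was called at a Benjamini-Hochberg adjusted p under 0.05 over all genes tested and a log2 fold change beyond 0.5 in either direction. CPM values carry no pseudocount, and correlations used log2 CPM with a prior count of 2. P-values measure the spread between libraries, each taken as a separate animal although the labels do not say so. Transcript length, from GENCODE annotation of GRCm38, was used for CPM per kb. Alternatives were DESeq2 1.42.0, limma-voom (limma 3.58.1), other scalings and filters, only the groups compared, a replicate block, removal of a smooth length and GC trend (mgcv 1.9.3) and leaving out each library. The scripts were tested on simulated counts. Replicate numbers did not pair the libraries: same-numbered libraries of different groups had correlations of their deviations from -0.30 to 0.26, over 0.1 in 4 of 12 pairs.

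The 10 genes, the partner and marker lists and the motifs were chosen with earlier results of these data known. All 10 genes are named. From each partner list the 2 called genes with the largest change in each comparison with WT are named, unless said otherwise, and for each called gene the 2 most correlated genes.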

Additional observations from a re-analysis of the deposited data

Results flagged for a closer look

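Dhodh in WT 4 stood apart from its group, at 9.64 CPM where the other 4 WT libraries lay between 12.8 and 13.8 CPM. The gap was 0.75 of the group's range. This was 1 of 30 groups of libraries examined in this way (10 genes in 3 groups), and chance sets about 1 in 20 groups apart.

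For 3 genes the change relative to WT differed between the models by the direct test of Spns1 KO against FeO. The difference was -1.48 on the log2 scale for Slc7a11, -1.74 for Ptgs2 and -0.61 for Sat1. The first 2 were called under all 22 alternative settings and that of Sat1 under 12.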

How the results depend on the processing

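Of 270 values under the settings that kept all libraries, 237 kept their direction and their side of the limits, 9 fell inside the limits, 1 passed them and 23 changed sign. Every changed sign belonged to a difference that was not called. With the length and GC trend removed, 1 of the 10 genes was called in Spns1 KO against WT (Slc7a11) in place of 3, and Ptgs2 was called in FeO (1.07, adjusted p = 0.0165, edgeR). The log2 fold changes against WT that turned in that fit were Slc3a2 (-0.12), Gch1 (0.039), Dhodh (-0.0028) and Sat1 (-0.11) in Spns1 KO and Slc7a11 (0.51), Aifm2 (-0.093) and Dhodh (-0.0074) in FeO, and between the models Dhodh (0.0046) and Acsl4 (-0.17). With library totals only, Slc3a2 (-0.051), Cbs (-0.041) and Acsl4 (-0.087) turned in Spns1 KO and Acsl4 also in FeO (-0.066) and between the models (-0.021). Acsl4 in FeO further turned with limma-voom (-0.075) and upper-quartile factors (-0.025). Aifm2 and Gch1 in Spns1 KO turned without the filter on low counts (0.048 and 0.032), and Aifm2 in a fit of only the groups compared (0.0067). The cause was not tested.

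With the replicate block, used although the numbers did not pair the libraries (0 of 12 correlated best with their own number), Ptgs2 in Spns1 KO against WT (-1.15, adjusted p = 0.0644) and Sat1 in Spns1 KO against FeO (-0.60, adjusted p = 0.0654, edgeR) were no longer called. In that fit Aifm2 (0.055), Gch1 (0.057) and Acsl4 (-0.10) turned in Spns1 KO and Acsl4 in FeO (-0.17). The Ptgs2 call in Spns1 KO was also lost with limma-voom (-1.09, adjusted p = 0.0527), without the filter (-1.06, adjusted p = 0.0522, edgeR) and with the trend removed (-0.81, adjusted p = 0.0942, edgeR).

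When each library was left out in turn, the called genes numbered 2 to 3 in Spns1 KO against WT, 2 to 4 in FeO against WT and 2 to 3 between the models. Of those 390 values, 345 kept direction and side, 14 fell inside the limits, 3 passed them and 28 changed sign. Signs changed for Acsl4 in Spns1 KO (-0.10 to 0.20), in FeO (-0.20 to 0.19) and between the models (-0.13 to 0.26), for Aifm2 in Spns1 KO (-0.073 to 0.074), for Cbs in Spns1 KO (-0.053 to 0.23) and between the models (-0.41 to 0.0097), for Gch1 in Spns1 KO (-0.15 to 0.16), in FeO (-0.045 to 0.50) and between the models (-0.50 to 0.043), and between the models for Dhodh (-0.095 to 0.048) and Gpx4 (-0.19 to 0.17).

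The Sat1 call between the models was lost without Spns1 KO 1, 2 or 4, WT 2 or 3, or FeO 1 or 3. Among partners, Gclm was lost in Spns1 KO without Spns1 KO 2 or 3, Glrx5 without 3, Sqor without 1, Ptgis without 1, 2 or 3 and Scly without 3, and in FeO Bhmt was lost without FeO 3 and Eefsec without WT 3 or FeO 3. With the trend removed, Sat2, Scly and Nqo1 in Spns1 KO and Bach1 and Slc7a8 in FeO were no longer called, and with the block Scly, Nqo1 and Slc7a8. Counts were lowest for Slc7a11, Gch1 and Ptgs2.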
